A study of Mus musculus with 12 samples.

Results

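The genes described here were 7 membrane transporters that move drugs, dyes and small metabolites across the cell surface: Abcb1a, Abcb1b, Abcg2, Abcc1, Abcc4, Abcc5 and Slc22a4. They were chosen by name, with earlier results of these data known, and each was matched by its Ensembl identifier among the 56748 genes of the count tables. All 7 passed the filter on low counts, which left 18438 genes to test.

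ATP-binding cassette (ABC) exporters use ATP to pump substrates out of the cell. In blood-forming stem cells they are known for dye exclusion, which gives the side population in flow cytometry, and for exporting cytotoxic drugs and tyrosine kinase inhibitors (TKI) such as imatinib. Solute carriers (SLC) mostly bring organic ions and nutrients inward, driven by ion gradients.

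RNA was sequenced from murine CD45.2+ Lin-Sca+Kit+ (LSK) BM cells, the sorted gate that holds stem cells and early progenitors. The donors were SCLtTA/BCR-ABL double transgenic (DTG) mice, in which the Scl-driven tetracycline (TET) transactivator restricts human BCR::ABL1 to primitive haemopoietic cells and TET silences it. Their BM, taken from a frozen pool of several mice of both sexes, was transplanted into irradiated CD45.1 B6.SJL recipients of 8 to 12 weeks of age, so every library carries both transgenes and comes from a transplanted marrow. All recipients received TET for the first 2 weeks. TET was then withdrawn for 2 weeks in the CML group (n = 6 libraries, BCR::ABL1+) and continued in the CTRL group (n = 6 libraries, BCR::ABL1−). The labels give male for every CTRL sample and female for every CML sample, so labelled sex and group cannot be told apart. The human transgene itself was not analysed here. The methods give n = 6 for each cohort, but nothing in the labels says that libraries of a group came from separate mice. The p-values therefore measure the spread between these libraries, part of which may be technical.

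Total counts ran from 22804754 to 41832868 in CTRL and from 16150817 to 25070105 in CML. Mitochondrial transcripts made up 0.816% to 1.288% of counts in CTRL and 2.258% to 2.973% in CML. The sorting markers Kit (681.0 to 800.0 counts scaled per library size, CPM, in CTRL and 323.1 to 521.7 in CML) and Ly6a, which encodes Sca-1 (27.2 to 38.3 and 31.4 to 74.1 CPM), were detected in all 12 libraries. CML libraries 2 and 4 stood apart by collagen transcripts, with Col3a1 at 275.4 and 78.5 CPM against at most 3.89 CPM in the other 10. The coefficient of biological variation was 10.8% in CTRL and 32.6% in CML. CPM are scaled by the TMM method throughout, and fold changes are CML against CTRL.

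Of the 7 transporters, 2 rose in BCR::ABL1+ cells (Slc22a4 and Abcc4), 3 fell (Abcg2, Abcc1 and Abcc5) and 2 did not pass the test (Abcb1a and Abcb1b), at an adjusted p under 0.05 (edgeR quasi-likelihood test, Benjamini-Hochberg over all genes tested). Over all genes tested, 59.5% passed, 30.6% higher and 29% lower, so that 5 of 7 is near the share of the whole transcriptome. The ranges of the groups did not overlap for 3 transporters (Slc22a4 above, Abcg2 and Abcc5 below), against 37.6% of all genes. The sizes differed widely. Slc22a4 changed 4.08-fold, whereas the 4 other called genes changed by 1.31-fold or less. The median log2 fold change of the 7 was −0.09, beside 0.07 for all genes tested. In bulk RNA, fewer cells of a type and less RNA per cell cannot be told apart, and this holds for each change below.

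**Figure D1:**
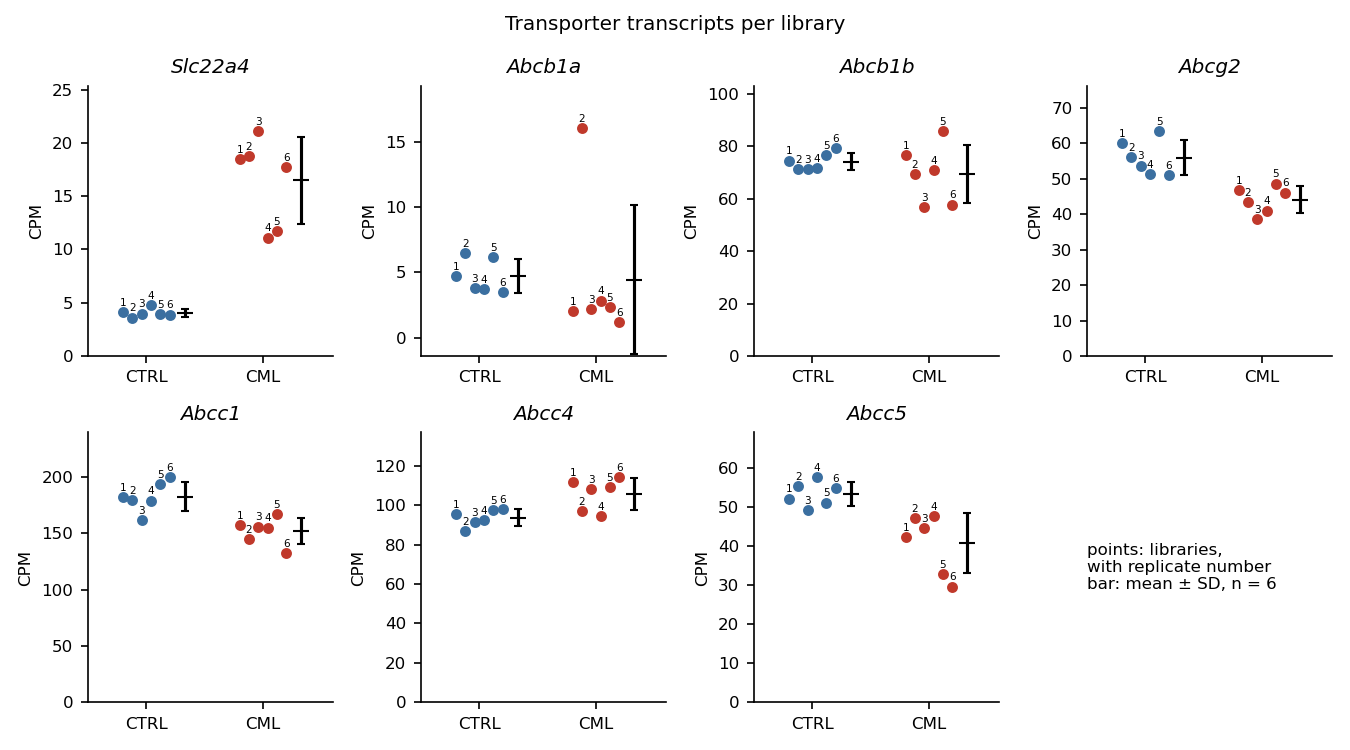
Each panel plots 1 transporter in CPM (linear axis) for the 6 CTRL (blue) and 6 CML (red) libraries, numbered by replicate, with the mean ± SD beside them. Slc22a4 was higher in every CML library, Abcg2 and Abcc5 were lower in every one, and Abcb1a in CML library 2 (16.0 CPM) lay far from the other 5 (1.18 to 2.82 CPM), so that its SD bar reaches below 0.

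Slc22a4 was the uptake carrier of the set. It encodes OCTN1, a sodium-coupled carrier best known for importing the antioxidant ergothioneine. Its level in CTRL libraries ran from 3.61 through a median of 3.93 to 4.74 CPM, and in CML libraries from 11.1 through 18.1 to 21.1 CPM. No CML library came near the CTRL range. Libraries 4 (11.1 CPM) and 5 (11.7 CPM) were the lowest of the CML group, and the other 4 lay between 17.7 and 21.1 CPM. The log2 fold change was 2.03 (SE 0.165, 95% interval 1.68 to 2.38, adjusted p = 1.8e-07, edgeR), and 1.31% of the genes tested had a larger rise. These values rest on 88 to 439 counts per library.

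The same 2 libraries were the lowest of the CML group for the primary granule genes that mark early granulocytic cells. Elane stood at 364.1 CPM in library 4 and 275.2 CPM in library 5, against 603.5 to 996.3 CPM in the other 4, and Ctsg at 949.0 and 753.5 CPM, against 1432 to 2016 CPM. Of the 10 neutrophil markers, Elane, Mpo, Prtn3 and Ctsg were higher in CML and 5 genes of mature neutrophils were lower, where 30.6% of all genes were higher and 29% lower. Their summed level was 2322 to 4664 CPM in CTRL and 3115 to 8541 CPM in CML, with libraries 4 and 5 at 3608 and 3115 CPM. None of the markers was at 0 in all libraries. Their part in the change of Slc22a4 was not tested.

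The genes most like Slc22a4 across the 12 libraries, by Pearson r of log2 CPM, were Ms4a3 (r = 0.991), which marks granulocyte and monocyte progenitors, Gatm (r = 0.991), the first enzyme of creatine synthesis, and Ap3s1 (r = 0.991), a subunit of the AP-3 vesicle adaptor. Ms4a3 ran from 41.3 to 59.1 CPM in CTRL and from 265.9 to 613.8 CPM in CML. The r of Ms4a3 was 0.951 within CML and 0.0424 within CTRL. All these coefficients are descriptions over libraries that share groups and scaling, and each r over 12 libraries includes the difference between the groups. Once each group was centred on its own mean, r was 0.859 for Ms4a3, 0.867 for Gatm and 0.848 for Ap3s1.

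Slc22a4 has relatives close by in gene order. On one side of it on chromosome 11 lie Slc22a21 and then Slc22a5, the carnitine carrier OCTN2, and both were looked up after the values were seen. Slc22a5 fell by 0.33 on the log2 scale (SE 0.0831, adjusted p = 0.00354, edgeR), from 20.3 to 23.2 CPM in CTRL to 14.2 to 19.3 CPM in CML. Slc22a21 had a log2 fold change of −0.46 that did not pass (adjusted p = 0.0964, edgeR). The rise of Slc22a4 was thus not shared by either relative.

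The promoter of Slc22a4 is shown because this gene had the largest change of the set. The sequence is the 250 bases upstream of the annotated start in RefSeq (GRCm38.p6, chr11:54028105-54028354, minus strand, 5′ to 3′), with matches to short motifs in capitals. That start is not the outermost end of the gene record. The motifs searched on both strands were the CCAAT box (CCAAT), the GC box (GGGCGG), the TATA box (TATAAA), the GATA factor motif (AGATAA), the STAT factor motif (TTCNNNGAA), the hypoxia response motif (ACGTG), the RUNX motif (TGTGGT) and the ETS motif (CCGGAA).
Slc22a4 promoter: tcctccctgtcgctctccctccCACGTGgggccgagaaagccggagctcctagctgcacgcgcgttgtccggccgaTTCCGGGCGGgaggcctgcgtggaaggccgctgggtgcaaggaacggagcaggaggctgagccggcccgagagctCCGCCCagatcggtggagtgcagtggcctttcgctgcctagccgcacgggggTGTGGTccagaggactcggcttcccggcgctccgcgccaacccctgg
The window had a GC content of 71.2%, beside a median of 52.4% for the 32851 promoters of the table. It held the palindrome CACGTG, which is a match to the hypoxia motif on each strand (in 16.6% of all promoters), GC boxes (32.7%), 1 ETS match (12.0%) that overlaps a GC box, and 1 RUNX match (14.0%). The other 4 motifs were not found. A match of letters is a description and not a bound site, and 6 of the 7 genes had a promoter in the table.

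Abcb1a and Abcb1b share the work of P-glycoprotein in the mouse, the broad drug exporter that a single gene encodes in humans. They lie next to each other on chromosome 5, and their coding sequences, each 3831 bases long, were 88.2% identical over the aligned bases. Of all 50-base windows of Abcb1a, 20.3% occurred unchanged in Abcb1b, and of all 100-base windows 9.83%. How reads that map to both were treated is not given in the sources used here, so some counts may be split between the pair.

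Abcb1a had fewer counts than Abcb1b in every library, and its level per kilobase was also lower in each. It ran from 3.47 through 4.25 to 6.46 CPM in CTRL and from 1.18 through 2.27 to 16.0 CPM in CML. CML library 2 alone gave 16.0 CPM, above every CTRL library, while the other 5 (1.18 to 2.82 CPM) lay below every CTRL library. With all 12 libraries the log2 fold change was −0.07 (SE 0.523, 95% interval −1.19 to 1.04, adjusted p = 0.913, edgeR). Without library 2 it was −1.16 (SE 0.236, adjusted p = 0.000572, edgeR), and without libraries 2 and 4 it was −1.29 (adjusted p = 0.000423, edgeR). The call on Abcb1a therefore turned on 1 library, and its counts were low (24 to 375 per library). Library 2 is singled out by its own Abcb1a value, so the adjusted p without it are descriptions.

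Library 2 held other transcripts that the rest of the group lacked or had less of. The summed level of the 12 stromal and endothelial markers was 958.1 CPM there and 447.2 CPM in library 4, against 180.2 to 219.7 CPM in the other CML libraries and 207.2 to 258.0 CPM in CTRL. The collagen gene Col1a1 stood at 221.5 CPM in library 2 and 89.4 CPM in library 4, and the endothelial cadherin Cdh5 at 6.89 and 1.63 CPM. Abcb1a was 2.82 CPM in library 4, the second highest of the CML group. The mast and basophil markers were also highest in library 2 (2646 CPM summed, against 495.5 to 1132 CPM in the other 5 and 317.1 to 429.3 CPM in CTRL). Of these lists, 3 stromal and 6 mast or basophil markers passed the test as higher in CML and 1 of each as lower, beside 30.6% and 29% of all genes. The 3 stromal ones were the collagen genes, which were high only in libraries 2 and 4. Their CML medians were below those of CTRL: 0.341 against 2.18 CPM for Col1a1, 0.911 against 2.43 for Col1a2 and 0.331 against 0.891 for Col3a1. The part of these cell types in the Abcb1a value was not tested.

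Abcb1b had more counts than Abcb1a in every library. It ran from 71.4 through 73.3 to 79.4 CPM in CTRL and from 57.0 through 70.2 to 85.9 CPM in CML. The CML libraries spread to both sides of the CTRL range, with 4 below it and 1 above. The log2 fold change was −0.09 (SE 0.0904, 95% interval −0.28 to 0.10, adjusted p = 0.401, edgeR). In this interval a fall by more than 0.28 or a rise by more than 0.10 on the log2 scale is not included.

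The balance within the pair was measured as the log2 ratio of Abcb1b to Abcb1a counts, which does not depend on how libraries are scaled. It was 4.01 ± 0.40 (SD, n = 6) in CTRL and 4.57 ± 1.26 (SD, n = 6) in CML. The difference of 0.55 did not exceed the spread (exact permutation test, two-sided, p = 0.34, where 0.00216 is the smallest this design allows). Abcb1a made up 4.19% to 8.30% of the counts of the pair in CTRL and 2.01% to 3.82% in 5 CML libraries, against 18.8% in library 2. Without that library the ratio of every CML library was above every CTRL library and the difference was 1.05 (exact permutation test, p = 0.00433, the smallest this design can give). Library 2 is singled out by this same ratio, so that p is a description and no test of a difference. With any other library left out, p ran from 0.303 to 0.567 (exact permutation test).

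**Figure D2:**
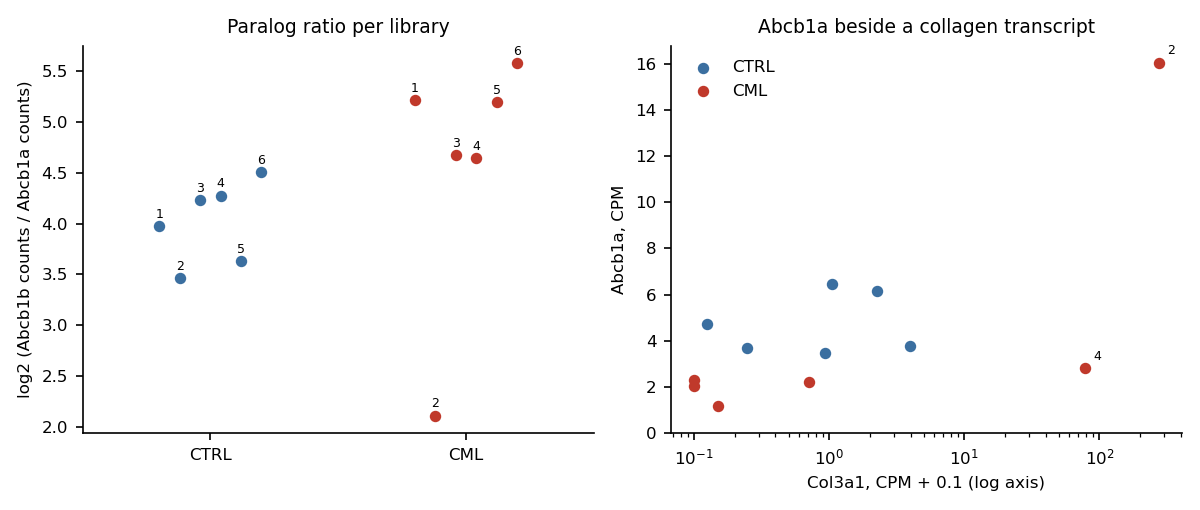
The left panel plots the log2 ratio of Abcb1b to Abcb1a counts in each library, and the right panel plots Abcb1a (CPM, linear axis) against the collagen transcript Col3a1 (CPM plus 0.1, log axis), blue for CTRL and red for CML. CML library 2 had the lowest ratio (2.11) and the highest values of both Abcb1a (16.0 CPM) and Col3a1 (275.4 CPM).

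The promoters of the pair are shown because these neighbouring genes differ in level although their coding sequences are alike. Both are the 250 bases upstream of the RefSeq start (GRCm38.p6, plus strand, 5′ to 3′): chr5:8566841-8567090 for Abcb1a and chr5:8797897-8798146 for Abcb1b. Capitals mark matches to the motifs spelled out for Slc22a4.
Abcb1a promoter: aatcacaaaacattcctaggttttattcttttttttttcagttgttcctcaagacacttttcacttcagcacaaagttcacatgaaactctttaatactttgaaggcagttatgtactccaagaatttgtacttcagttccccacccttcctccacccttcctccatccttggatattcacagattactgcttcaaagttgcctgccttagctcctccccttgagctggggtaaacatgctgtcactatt
Abcb1b promoter: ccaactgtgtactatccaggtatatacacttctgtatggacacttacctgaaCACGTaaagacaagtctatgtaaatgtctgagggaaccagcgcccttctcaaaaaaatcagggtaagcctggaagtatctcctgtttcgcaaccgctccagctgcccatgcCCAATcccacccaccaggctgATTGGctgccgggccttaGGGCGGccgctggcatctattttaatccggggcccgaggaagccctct
The windows were 62.1% identical over 214 aligned bases, less than the coding sequences. No other pair of promoters was aligned, so whether this exceeds the value for unrelated windows is not known. The Abcb1b window, with a GC content of 52.8%, held a CCAAT box on each strand (in 33.8% of all promoters), 1 GC box and 1 hypoxia motif. The Abcb1a window, at 40.4%, held none of the 8 motifs, which says only that these letters are not in this window. Which start of either gene these cells use was not determined, so either window may lie away from the active promoter.

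Abcb4, the phosphatidylcholine floppase of bile that lies on the other side of Abcb1b, was on the list of further ABC exporters. It ran from 19.1 through 23.9 to 28.2 CPM in CTRL and from 5.08 through 8.47 to 12.2 CPM in CML, with no overlap. Its log2 fold change was −1.47 (SE 0.203, adjusted p = 2.18e-05, edgeR). With all libraries included, the one gene of this cluster of 3 ABC genes that is not P-glycoprotein had the call. Abcb1a was also called lower once CML library 2 was left out.

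Abcg2 encodes BCRP, the exporter of Hoechst dye, porphyrins and urate that gives murine stem cells their side population. Its level ran from 51.1 through 55.0 to 63.5 CPM in CTRL and from 38.7 through 44.8 to 48.7 CPM in CML. All 6 CML libraries were below all 6 CTRL libraries. The log2 fold change was −0.34 (SE 0.0741, 95% interval −0.50 to −0.18, adjusted p = 0.00107, edgeR), and 64.4% of the genes tested had a larger change in either direction.

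Genes of long-term HSC, the cells in which Abcg2 is best known, were lower in the same libraries. Of 8 markers, 6 fell and 2 did not pass the test (29% of all genes tested fell), and their summed level was 489.3 to 637.1 CPM in CTRL and 192.3 to 288.3 CPM in CML. Hlf, a stem cell transcription factor, fell by 1.64 on the log2 scale (adjusted p = 2.35e-07, edgeR). Erythroid cells also express Abcg2, and of 9 erythroid markers 8 fell, beside the same 29% (83.3 to 147 CPM summed in CTRL, 24.3 to 61.4 CPM in CML). None of either list was at 0 in all libraries. Their part in the change of Abcg2 was not tested. The genes most like Abcg2 were Zfp563 (r = 0.952), Pde4b (r = 0.941) and Ehd4 (r = 0.938) over 12 libraries, with r from 0.786 to 0.833 once each group was centred on its own mean.

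Abcc1, Abcc4 and Abcc5 belong to the multidrug resistance proteins (MRP), which export organic anions and conjugates. Their coding sequences were 61.0% to 62.4% identical between pairs, with 0 shared windows of 50 bases. These coding sequences thus lack the shared stretches described for the P-glycoprotein pair. Untranslated parts and other genes were not compared.

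Abcc1 encodes MRP1, the exporter of glutathione conjugates and leukotriene C4. It ran from 161.6 through 180.5 to 199.3 CPM in CTRL and from 132.4 through 155.2 to 166.9 CPM in CML. In 5 CML libraries it was below every CTRL library, and library 5 (166.9 CPM) overlapped the lowest of them. The log2 fold change was −0.26 (SE 0.0673, 95% interval −0.41 to −0.12, adjusted p = 0.00368, edgeR), and 72.8% of the genes tested changed more.

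Abcc5 encodes MRP5, an exporter of cyclic nucleotides and nucleotide analogues. It ran from 49.2 through 53.5 to 57.6 CPM in CTRL and from 29.6 through 43.5 to 47.6 CPM in CML, without overlap. Libraries 5 (32.8 CPM) and 6 (29.6 CPM) were well below the other 4 of their group, which lay between 42.4 and 47.6 CPM. The log2 fold change was −0.39 (SE 0.109, 95% interval −0.63 to −0.16, adjusted p = 0.00636, edgeR), the largest fall of the 7 with all libraries included.

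Abcc4 encodes MRP4, which exports cyclic AMP, prostaglandins and thiopurine metabolites. It was the only exporter of the set that was called higher in CML. It ran from 86.6 through 93.9 to 98.0 CPM in CTRL and from 94.3 through 108.6 to 114 CPM in CML. The groups overlapped, with 4 CML libraries above all CTRL libraries and libraries 2 (96.9 CPM) and 4 (94.3 CPM) inside their range. The log2 fold change was 0.18 (SE 0.0601, 95% interval 0.05 to 0.30, adjusted p = 0.0208, edgeR), and 81.4% of the genes tested changed more. The call was lost without CTRL library 2 (0.15, adjusted p = 0.0548, edgeR), without CML library 6 (0.14, adjusted p = 0.0542) and without a filter on low counts (0.105, adjusted p = 0.269).

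Abcc4 and Abcc5 moved apart between libraries as well as between groups. Their r over 12 libraries was −0.825, and −0.637 once each group was centred. The pair Abcb1b and Abcc1 had r = 0.644 after centring, the highest of the 21 pairs of transporters. These are descriptions over 12 libraries that share their scaling. Among the genes most like each MRP gene were Nlrc3 (r = 0.940), Pde4a (r = 0.934) and Cep290 (r = 0.934) for Abcc1, Mbip (r = 0.941) and Sco1 (r = 0.929) for Abcc4, and Pak6 (r = 0.943), Phkg2 (r = 0.937) and Setdb1 (r = 0.933) for Abcc5. For the P-glycoprotein pair they were Mindy1 (r = 0.963), C77080 (r = 0.954) and AI661453 (r = 0.950) for Abcb1a, and Bclaf1 (r = 0.899), Dhx29 (r = 0.887) and Cluh (r = 0.870) for Abcb1b. The r of Abcb1a includes CML library 2, where its level was far from the rest. Within CTRL alone, r with Abcb1a was 0.696, 0.727 and 0.600 in the order named. For the genes of Abcc5, r within CTRL was 0.496, 0.827 and −0.209.

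**Figure D3:**
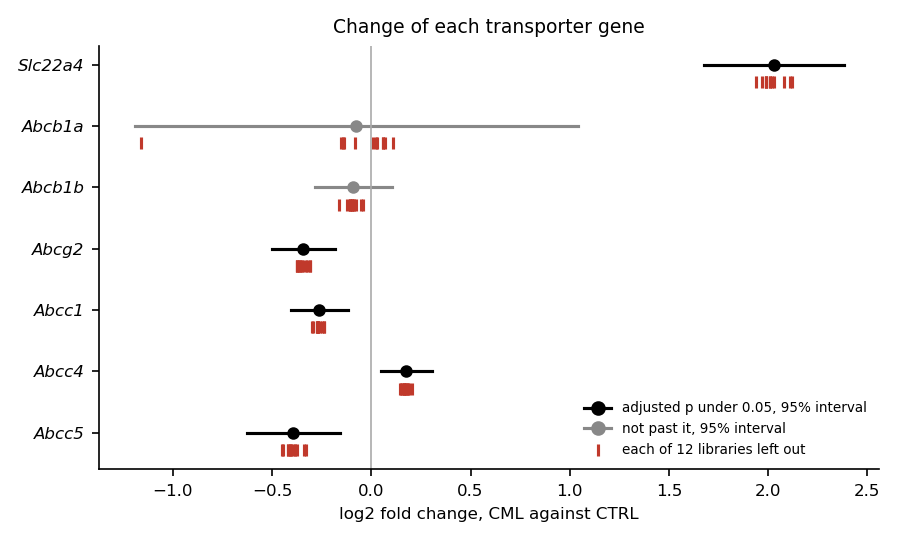
Points show the log2 fold change of each transporter (CML against CTRL) with its 95% interval, black where the adjusted p was under 0.05 and grey where it was not, and red ticks show the value with each of the 12 libraries left out in turn. The ticks stay near the point except for Abcb1a, which ran from −1.16 to 0.11.

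The levels of the 7 genes were ranked per length of transcript, as CPM per kilobase of the longest annotated transcript. In CTRL the order was Abcc1 (median 26.6), Abcb1b (17.0), Abcc4 (16.4), Abcg2 (9.62), Abcc5 (9.21), Slc22a4 (1.74) and Abcb1a (0.851). Neighbours overlapped for Abcb1b with Abcc4 and for Abcg2 with Abcc5, and the other neighbours were apart. In CML Abcc1 (22.9), Abcc4 (19.0) and Abcb1b (16.3) came first, each overlapping the next. Slc22a4 (8.00), Abcg2 (7.84) and Abcc5 (7.48) followed with overlapping ranges, and Abcb1a (0.453) was last in both groups. By this length Slc22a4 thus moved from well under Abcg2 and Abcc5 to their level. Per kilobase of the union of exons, an alternative chosen after the data were seen, Abcc4 ranked first in both groups (14.7 and 17.0) and Abcc1 second (12.0 and 10.3). By that length the CML median of Slc22a4 (7.09) was above those of Abcg2 (5.495) and Abcc5 (4.07), and its range overlapped both.

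**Figure D4:**
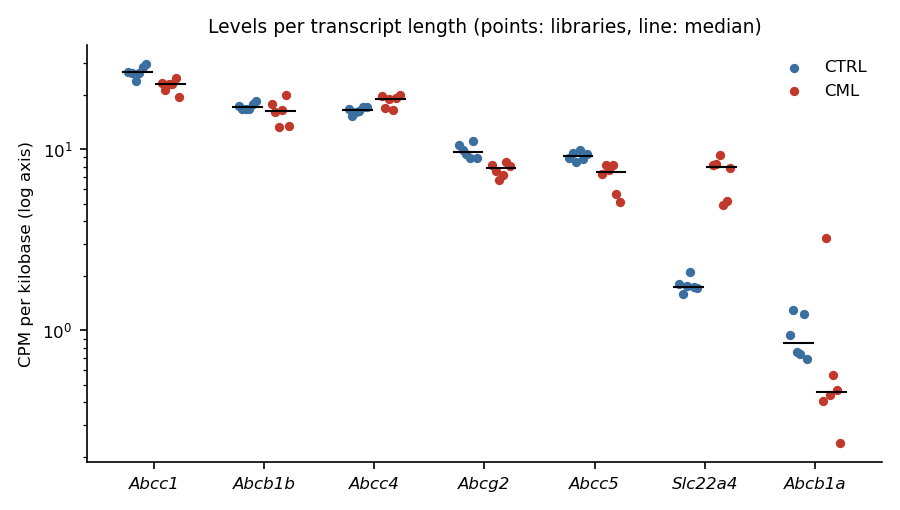
Points show CPM per kilobase of the longest transcript (log axis) for each library, blue for CTRL and red for CML, and black lines show medians. Abcc1 had the highest median in both groups, Abcb1a the lowest, and Slc22a4 rose from 1.74 to 8.00.

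Other transporters of the same families, and sensors of drugs, oxidative stress and oxygen, were followed in 7 lists of 73 genes. Of these, 49 passed the filter, 8 were higher in CML, 25 were lower and 16 did not pass the test. Without CML libraries 2 and 4 the counts were 9 higher and 27 lower. Over all genes tested 30.6% were higher and 29% lower, with a median log2 fold change of 0.07, and the count of each list below stands beside these shares. The lists were chosen with earlier results of these data known.

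Among the 6 genes of the list of further ABC exporters that could be tested, 5 fell and 1 rose (median −0.86), where 29% of all genes tested fell and 30.6% rose. The list mixes lipid carriers (Abcb4, Abca2 and Abca3) with MRP genes, so its median does not describe drug exporters alone. The MRP genes that fell were Abcc3 (−0.76, adjusted p = 0.0139) and Abcc10 (−0.57, adjusted p = 0.00347, edgeR), both named after their values were seen. Besides Abcb4, the lipid transporters Abca2 and Abca3 fell by 1.08 (SE 0.0780, adjusted p = 7.41e-08) and 0.96 (SE 0.0667, adjusted p = 6.00e-08) on the log2 scale (edgeR). Abca2 was abundant, at 354.8 to 406.4 CPM in CTRL and 159.4 to 215.4 CPM in CML. The 1 gene that rose was the liver-type exporter Abcc2, at 1.16 to 1.64 CPM in CTRL and 1.07 to 4.19 CPM in CML (log2 fold change 0.71, adjusted p = 0.0442, edgeR). It was named after its values were seen, and its call was lost in 12 of 19 alternatives, with a value of 0.46 without CML library 1 (adjusted p = 0.139, edgeR). Abcc12 reached at most 3 counts in any library.

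The 11 transporters of organelles split, with 3 higher, 4 lower and 4 not passing (median 0.15). Abcd2, a peroxisomal carrier of very long chain fatty acids, rose by 1.63 (SE 0.250, adjusted p = 5.64e-05, edgeR), from 13.6 to 22.7 CPM in CTRL to 29.4 to 99.2 CPM in CML. Tap1 and Tap2, which load peptides for MHC class I, fell by 1.01 (adjusted p = 1.17e-06) and 0.98 (adjusted p = 1.71e-08) on the log2 scale (edgeR). Of the 5 lipid transporters tested, 3 fell and 2 did not pass (median −0.62). The fall was 0.74 for Abca7 (adjusted p = 8.87e-06, edgeR) and 0.62 for Abca5 (adjusted p = 0.00623, edgeR). The other, the sterol exporter Abcg4, was scarce and was named after its values were seen, at 0.912 to 1.815 CPM in CTRL and 0 to 0.444 CPM in CML (adjusted p = 0.000237, edgeR).

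Of 16 other SLC22 carriers, 7 could be tested, with 1 higher, 4 lower and 2 not passing (median −0.46). The 1 that rose, as Slc22a4 did, was Slc22a15, named after its values were seen. Its log2 fold change was 0.40 (SE 0.111, adjusted p = 0.00585, edgeR), from 13.8 to 21.6 CPM in CTRL to 19.0 to 25.5 CPM in CML. Slc22a17, a receptor for lipocalin 2, fell by 2.16 on the log2 scale (SE 0.239, adjusted p = 2.80e-06, edgeR), from 7.09 to 13.7 CPM in CTRL to 1.28 to 3.06 CPM in CML. Slc22a3, the organic cation transporter OCT3, fell by 0.99 (SE 0.114, adjusted p = 4.15e-06, edgeR), from 166.3 to 222.7 CPM to 72.5 to 124.0 CPM. Slc22a18 fell by 0.78 (adjusted p = 0.00414, edgeR).

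Of 6 SLCO carriers of organic anions, 3 fell and 3 did not pass (median −0.56). Slco5a1 fell by 1.61 on the log2 scale (SE 0.272, adjusted p = 0.000136, edgeR). Slco2a1, the prostaglandin uptake carrier, fell by 1.26 (SE 0.468, adjusted p = 0.0311, edgeR) and Slco2b1 fell by 0.77 (SE 0.292, adjusted p = 0.0339, edgeR). The call on Slco2a1 was lost without any 1 of CTRL libraries 1 and 2 and CML libraries 1, 5 and 6 (adjusted p = 0.0519 to 0.0642), and that on Slco2b1 without CTRL libraries 2 or 5 or CML libraries 1 or 3 (adjusted p = 0.0555 to 0.0734). For Slco2a1 CML library 2 was the highest of its group (10.7 CPM), and without it the gene fell by 1.88 on the log2 scale (adjusted p = 0.000373, edgeR), and without libraries 2 and 4 it fell by 2.40 (adjusted p = 6.89e-06, edgeR).

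Of 6 nucleoside and folate carriers tested, 2 rose, 2 fell and 2 did not pass (median 0.12). Slc28a2, which concentrates purine nucleosides, rose by 1.05 (SE 0.264, adjusted p = 0.00332, edgeR), from 54.4 to 66.0 CPM in CTRL to 78.2 to 271 CPM in CML. Library 2 was again the highest, and without it the rise was 0.67 (adjusted p = 0.000813, edgeR). Slc29a3, a lysosomal nucleoside carrier, fell by 0.95 (SE 0.0519, adjusted p = 1.71e-08, edgeR), and Slc19a1, the reduced folate carrier, rose by 0.29 (SE 0.0567, adjusted p = 0.000451, edgeR).

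Of 8 sensors tested, 1 rose, 4 fell and 3 did not pass (median −0.18). The list holds genes of differing roles, so these counts have no common direction of effect. Among those that fell was Keap1 (−0.53, adjusted p = 6.34e-05), while Nfe2l2 did not pass (−0.02, adjusted p = 0.866, edgeR). Both were named after their values were seen. Hif1a, the oxygen-regulated factor, rose by 0.62 (SE 0.141, adjusted p = 0.00154, edgeR), from 69.7 to 83.2 CPM to 84.0 to 171.1 CPM. Rxra and Rxrb, the retinoid X receptors that partner many nuclear receptors, fell by 0.54 (adjusted p = 0.00279) and 0.75 (adjusted p = 6.00e-08) on the log2 scale (edgeR). Nr1i2, which encodes the pregnane X receptor that senses drugs in liver, reached at most 3 counts in any library.

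**Figure D5:**
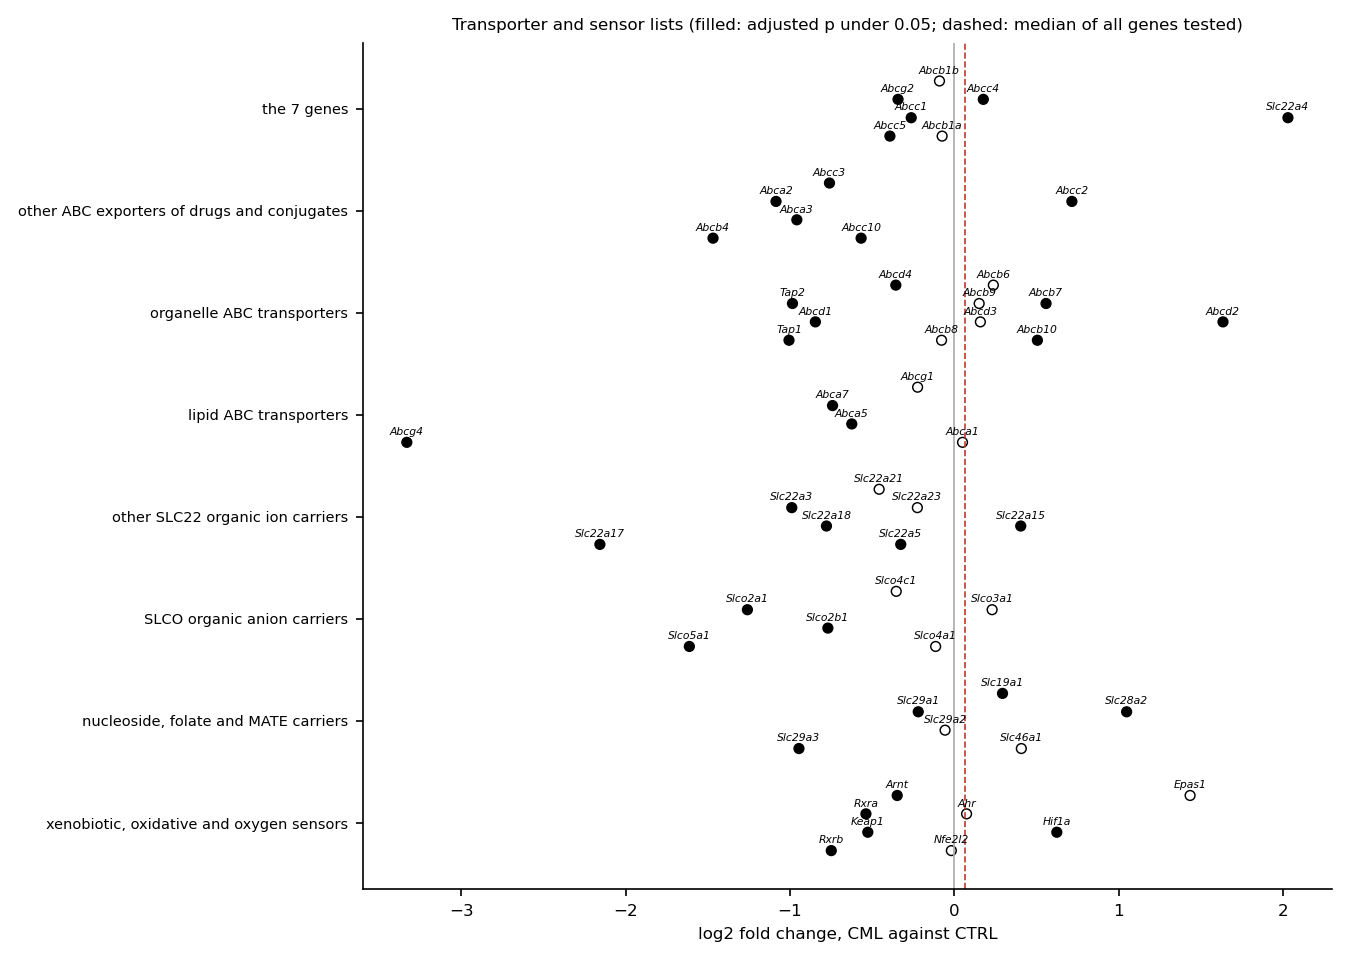
Each point is a tested gene at its log2 fold change (CML against CTRL), in rows for the 7 transporters and the 7 further lists, filled where the adjusted p was under 0.05. The dashed line is the median of all genes tested (0.07), and Slc22a4 (2.03) stands to the right of every SLC22 relative.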

How the data were processed

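The authors made 12 bulk RNA-seq libraries and deposited, for each, whole-number raw counts by Ensembl gene without normalization. Their processing notes name FastQC 0.11.9, fastp 0.23.2, STAR 2.7.10a, featureCounts 2.0.1, DESeq2 1.36.0 and the mouse build GRCm39, whereas the methods name Trim Galore!, HISAT2 and a human genome for bulk RNA-seq. The annotation, the strand setting and the handling of multi-mapping reads are not given in the sources used here. Without strand, reads from Abcb1a and Abcb1b cannot be told apart from their antisense genes Gm42686 and Gm5106, which reached at most 11 and 24 counts in any library. Coordinates are not given on GRCm39, and promoters come from RefSeq on GRCm38.p6.

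Symbols were matched for 52073 of 56748 identifiers, and 0 entries named no gene. No pair of replicates agreed within sampling noise (lowest chi-square per degree of freedom 4.07). The test was edgeR 4.0.16 (quasi-likelihood, TMM, filterByExpr, group as the only term) in R 4.3.3, with Benjamini-Hochberg adjustment over 18438 genes. The ratio of the Abcb1 pair (counts plus 0.5) was tested in Python 3.11.15 with scipy 1.17.1 by exact permutation. Log2 CPM for correlations used a prior count of 2. The fit was tested on simulated data with the same spread in both groups. The changes planted there were larger than those of most called transporters. That test therefore does not cover unequal spreads or such small changes. A count of 0 was read as up to 3 counts. PCR copies are not independent molecules.

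The genes and lists were chosen with earlier results of these data known. Named genes were the 7 transporters, up to 3 of largest change per list among those called with a mean log2 CPM of at least 0, the 3 genes most like each transporter (mean log2 CPM of at least 1), and defining markers of the 10 cell type lists. A few genes that this rule or the lists hold are not reported here. Alternatives were DESeq2 1.42.0, upper-quartile scaling, no filter, removal of mitochondrial genes, the replicate block and leaving out libraries. Leaving out CML libraries 2 and 4 together, and the union of exons as gene length, were chosen after the data were seen. Libraries 6 of both groups have neighbouring library numbers and the others run in separate series by group, so no value within a run of numbers could be had.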

Additional observations from a re-analysis of the deposited data

Results flagged for a closer look

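In 3 cases a single CML library, number 2 each time, stood well away from the remaining 5 on Dixon's criterion, out of 56 groups of values examined, where chance alone gives about 2.8. Abcb1a was 16.0 CPM there against 2.82 CPM in the next library. The log2 ratio of Abcb1b to Abcb1a, which rests on the same Abcb1a counts, was 2.11 against 4.64 in the next. Slc28a2 was 271 CPM against 145 CPM in the next. The groups examined did not include every listed gene, so the comparison with chance holds for those groups only. The sensors Ahr and Epas1, which did not pass the test between groups, were not among them. Both were also highest in CML library 2, Ahr at 27.98 CPM against 11.77 CPM in the next and Epas1 at 7.915 CPM against 2.876 CPM. The same library had the highest Col3a1 (275.4 CPM), the highest mast cell protease Cma1 (505.2 CPM) and the fewest genes with counts (22965). Whether these go together for 1 reason was not tested.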

How the results depend on the processing

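Slc22a4 (log2 fold change 1.94 to 2.12), Abcg2 (−0.41 to −0.27), Abcc1 (−0.34 to −0.19) and Abcc5 (−0.53 to −0.30) kept their direction and call in all 19 alternatives. Abcb1b stayed below 0 and without a call in all 19. Abcc4 kept its direction (0.11 to 0.25) and its call in 16. The number of transporters called higher was 1 without a filter on low counts and 1 to 2 with each library left out, and the number called lower 3 to 4. Abcb1a was −1.16 to 0.108 with each library left out, above 0 in 7 of those 12 fits, and 0.0515 without replicates 6 of both groups, with no call in any of these 8. The ratio of the Abcb1 pair ran from 0.35 to 1.05 with each library left out, and was 1.15 without CML libraries 2 and 4 (exact permutation test, p = 0.00952, the smallest it can give). Those libraries were picked after the values were seen, so this p is a description. The cause was not tested beyond the library left out.

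Replicate numbers are shared between the groups, but same-numbered libraries did not deviate together (r from −0.125 to 0.0679, 0 of 6 pairs over 0.1, 1 library best with its own number). With the replicate block, 4786 genes were called higher and 5189 lower, against 5637 and 5339 without it, and the calls on the 7 transporters did not change. With the block, the log2 fold change of Abcb1a was −0.66 (adjusted p = 0.137, edgeR) and the ratio of the pair differed by 0.55 (exact sign-flip test, p = 0.219). Of the 21 genes named as most like a transporter, 21 stayed in the first 3 with a prior count of 0.5 and 3 by Spearman rho. Depth limits Abcb1a most, at 24 to 375 counts per library.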
